A study of Mus musculus with 3 samples.

Results

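Processed pseudogenes with reads in the cytosol of stimulated macrophages were 73 genes, out of 10004 processed pseudogenes among the 55536 genes of the annotation. A gene was taken when all of its transcripts were typed as processed or transcribed processed pseudogenes and its mean expected count over 3 libraries was 100 or more. The counts themselves chose the 73 pseudogenes, so their counts are a description. Another 1818 processed pseudogenes had a mean above 0 but under 100, and 8113 were at 0 in all 3 libraries. The cells were C57BL/6J mouse bone marrow-derived macrophages, primary cells grown from marrow progenitors, exposed to Lipid A at 100 ng/ml for 40 minutes. Toll-like receptor 4 senses Lipid A, the lipid anchor of bacterial lipopolysaccharide. Total RNA depleted of ribosomal RNA came from the cytosolic fraction, in replicates 1, 2 and 3 of 1 group that share a donor record, so the spread between them may be technical. Unstimulated cells and other fractions were not analysed here, and no value below is a response to Lipid A.

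A processed pseudogene is a retrocopy. The messenger RNA of a parent gene was reverse transcribed and inserted elsewhere in the genome, so the copy lacks introns and usually lacks a promoter of its own. Over time most copies gather substitutions and lose their reading frame. Abundant messenger RNAs of the germ line, such as those of ribosomal proteins, translation factors and glycolytic enzymes, have left many copies in mammalian genomes. A young copy still matches its parent almost base for base, and a short read from such a stretch fits both. A quantification tool must then divide the read between the copies by a rule.

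The files held 2 such divisions of the same libraries. The gene table gave expected counts from reads aligned to transcripts, and the second transcript table gave estimated counts made from the reads directly, here summed to genes. Counts over genes summed to 37861150, 37136495 and 58889061 in the gene table of replicates 1, 2 and 3, and to 43923083, 47677964 and 78243164 in the second table. Macrophage markers were present, with the means of 7 markers between 25.7 and 5974 TPM, a level per length. Means of 4 neutrophil markers lay between 0 and 22.9 TPM, and those of 7 markers of B, T, stromal and erythroid cells between 0 and 0.04 TPM.

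How closely a copy matches its parent is visible in the letters. In each pair below, an 80-base stretch of a pseudogene stands above the matching coding stretch of its best-matching protein-coding transcript, here called the candidate parent. Capitals mark the bases at which the pair differs, and each window is the one with the most differences in the aligned coding part. The first pair is the pseudogene with the highest count, and the next 2 are copies that the tables counted very differently. The last 3 are the pseudogenes with the most sequence of their own. The pseudogene windows lie at chr6:99878255-99878334 (minus strand), chr4:103564186-103564265 (plus), chr7:83756704-83756783 (plus), chr17:78850911-78850990 (minus), chr6:49071742-49071821 (plus) and chr11:58188322-58188401 (plus) of mouse build mm10.
Tpt1-ps3: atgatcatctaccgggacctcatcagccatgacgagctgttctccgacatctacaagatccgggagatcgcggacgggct
Tpt1: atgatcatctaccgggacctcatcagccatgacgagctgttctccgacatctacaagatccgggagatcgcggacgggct
Gm12715: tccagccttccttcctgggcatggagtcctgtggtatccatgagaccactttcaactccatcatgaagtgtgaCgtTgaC
Actg1: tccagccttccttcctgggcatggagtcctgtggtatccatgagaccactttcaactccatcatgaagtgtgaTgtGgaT
Gm7964: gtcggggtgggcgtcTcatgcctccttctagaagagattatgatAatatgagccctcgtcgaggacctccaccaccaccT
Hnrnpk: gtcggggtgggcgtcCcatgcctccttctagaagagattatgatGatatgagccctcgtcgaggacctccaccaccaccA
Gm6548: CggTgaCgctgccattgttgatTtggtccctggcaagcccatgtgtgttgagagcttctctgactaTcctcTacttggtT
Eef1a1: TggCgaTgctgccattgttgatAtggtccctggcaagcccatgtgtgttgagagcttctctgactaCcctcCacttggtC
Gm19253: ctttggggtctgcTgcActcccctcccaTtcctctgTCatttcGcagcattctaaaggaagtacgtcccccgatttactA
Mrps36: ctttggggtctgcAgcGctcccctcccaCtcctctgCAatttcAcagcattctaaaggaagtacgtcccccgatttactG
Gm12250: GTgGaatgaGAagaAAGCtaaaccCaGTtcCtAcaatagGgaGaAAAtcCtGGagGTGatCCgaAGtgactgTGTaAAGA
Gm5431: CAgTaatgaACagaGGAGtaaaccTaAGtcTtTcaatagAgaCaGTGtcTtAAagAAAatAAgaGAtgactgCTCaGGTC
Tpt1-ps3 had 0 differences from Tpt1 in any such window. Gm12715 and Gm7964 had at most 3 in 80 bases, against 7 for Gm6548, 7 for Gm19253 and 36 for Gm12250.

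Most of the 73 pseudogenes were near-exact copies. Over the aligned part, 62 were at least 99% identical to the candidate parent, and the median identity was 99.8%. An exact match over the whole annotated length was found for 30. Among these, Gm15725 and Gm17084 overlap an exon of the gene they match, so the match may be that gene's own sequence. The base aligned to the first base of the parent's coding part lay within 58 of the pseudogenes. Read from there to a stop codon or the annotated end, 52 of these 58 kept at least 98% of the parent's codons and 6 met an earlier stop. One of the 6, Oaz1-ps, named here after its value was seen, copies a gene that is itself read with a programmed frameshift. The sequence that could tell a copy from every other gene was counted as words of 31 bases that occur in no transcript of another gene. Such words made up a median of 1.71% of a pseudogene's words here, against 85.4% over all processed pseudogenes and 44.0% over those with a mean count above 0 but under 100. In 34 of the 73 (46.6%), Gm15725 and Gm17084 among them, there was no such word at all, against 391 of 10002 processed pseudogenes with words (3.91%). At the other end 3 pseudogenes had more than 50% of their words to themselves: Gm6548 with 53.3%, Gm19253 with 86.6% and Gm12250 with 100%.

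**Figure D1:**
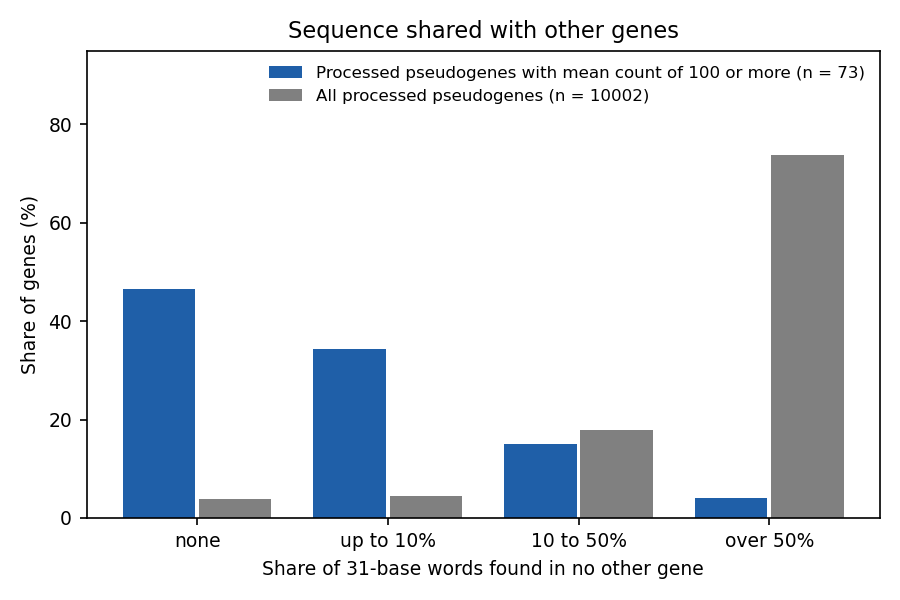
Share of genes (%, y axis from 0) by the share of their 31-base words that occur in no other gene (x axis), for the 73 processed pseudogenes with a mean count of 100 or more (blue) and all 10002 processed pseudogenes with words (grey). The blue bar for no such words stands at 46.6% and the grey one at 3.91%, while the bars for more than 50% stand at 4.11% and 73.8%.

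The 73 pseudogenes had 68 candidate parents, lay on 19 chromosomes, and shared the parent's chromosome in 6 cases, among them the overlapping Gm15725 and Gm17084. Their expected counts summed to 27742, 32735 and 38204 in replicates 1, 2 and 3, which was 0.0733%, 0.0881% and 0.0649% of each library and 72.9%, 78.4% and 73.1% of all counts on processed pseudogenes. In the second table they summed to 46082, 70114 and 57433. Replicate 2 gave the highest CPM (counts scaled by the library sum) for 40 of 73 in the gene table. It did so for 44 of the 68 pseudogenes above 0 in the second table. The other 5 were at 0 in all its libraries, taking values below 0.01 counts as 0. The share over all genes was not taken, so nothing particular to the pseudogenes is read from these counts.

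Copies of ribosomal protein genes were the largest family, with 26 of the 73 and 40.3% of their expected counts, and 16 of these 26 had no word of their own. Translation factors had 6 copies, glycolytic enzymes 4, chaperones and prolyl isomerases 3, and chromatin proteins, respiratory chain proteins and ubiquitin enzymes 2 each. One actin copy, Gm12715, and 1 copy of an RNA-binding protein, Gm7964, were each alone in their family. None was matched to a ferritin gene, and 26 were matched to other genes. Families were set by the parent's symbol, so Morf4l1-ps1, a copy of the chromatin protein gene Morf4l1, is among the other genes. Only Gm15725 was typed as a transcribed processed pseudogene.

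Tpt1-ps3 (chr6:99877816-99878334) had the highest count. It is an exact copy of Tpt1, which encodes the translationally controlled tumour protein, and keeps all 172 codons. It had 3417, 3590 and 3098 expected counts in replicates 1, 2 and 3, and 12867, 17043 and 13195 estimated counts in the second table. The libraries did not overlap between the tables, and every library was lower in the gene table. The log2 difference, gene table minus second table on the scale of log2(CPM + 1 count), was -1.75 ± 0.11 (SD, n = 3). With TPM rescaled without the abundant 7SL genes and an offset of 0.1 TPM, the log2 difference was 0.23, where the median of all genes moved from 0.15 to 1.98. Tpt1 itself had a mean of 61344 counts in the gene table and 56585 in the second. The level of Tpt1-ps3 in the gene table was 183 ± 77.8 TPM (SD, n = 3).

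Ribosomal protein copies followed. Gm7536 (chr3:24333068-24333511), an exact copy of Rpl27a, a protein of the large subunit, had 1763, 2972 and 2585 counts, against 5342, 6766 and 6161 in the second table. Rps23-ps1 (chr3:37714740-37715164), an exact copy of the small-subunit gene Rps23, had 1337, 1053 and 2548 counts, against 4247, 4854 and 4913. Both were lower in the gene table in every library, with log2 differences of -1.02 ± 0.32 and -1.28 ± 0.67 (SD, n = 3). Rpl31-ps8 (chr15:90764279-90764656), also exact, had 1644, 1379 and 2202 counts, against 2160, 2619 and 2186, and its log2 difference of -0.11 ± 0.50 was smaller than its SD. Rps16-ps2 had a mean of 608 counts, against 2199 in the second table. On the TPM setting just described the differences of Gm7536, Rps23-ps1 and Rps16-ps2 were 0.98, 0.73 and 0.49, also below the shift of all genes.

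Rpl27-ps3 and Gm11518 (chr11:94037218-94037628) are exact copies of Rpl27 and of each other. Each was given 797, 955 and 1229 counts in the gene table and 752, 1210 and 1076 in the second, equal values for both loci in every library. The 2 loci cannot be told apart by these values.

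Rpl28-ps1 (chr1:128038569-128038982) had the lowest log2 difference. This exact copy of Rpl28 had 304, 51.9 and 61.5 counts in the gene table and 2962, 3744 and 3324 in the second. The second table was higher in every library, and the log2 difference was -4.72 ± 1.46 (SD, n = 3). Replicate 1 stood apart in the gene table only.

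Gm12715, Gm13509 and Gm7964, close but not exact copies, had far more counts in the gene table. Gm12715 (chr4:103563402-103564529) is a copy of Actg1, cytoplasmic gamma-actin, at 99.6% identity. It had 824, 1341 and 1560 counts in the gene table and 13.1, 6.61 and 32.5 in the second, a log2 difference of 6.59 ± 1.02 (SD, n = 3). Gm13509 (chr2:49308155-49309462) copies Ap2m1, the medium subunit of the AP-2 clathrin adaptor, at 99.7% identity. It had 806, 471 and 938 counts against 8.69, 10.9 and 9.10, a log2 difference of 6.37 ± 0.66. Gm7964 (chr7:83755904-83757281) copies Hnrnpk, which encodes the RNA-binding protein hnRNP K, at 99.2% identity. It had 503, 564 and 941 counts against 0, 13.1 and 1.81. In these 3 pseudogenes the tables did not overlap in any library.

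Morf4l1-ps1 (chr16:24529394-24530362), a copy of the chromatin protein gene Morf4l1, had 920, 1478 and 1182 counts in the gene table. Its second-table counts were 49.4, 2188 and 206, so the tables were close in replicate 2 and far apart in the others. Gm10123 (chr9:96895658-96896147), an exact copy of the prolyl isomerase gene Ppia, had 1211, 741 and 1092 counts against 5402, 3924 and 8436.

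The 5 pseudogenes at 0 in every library of the second table had counts in each library of the gene table. Gm10443, an exact copy of Rps28, had 227, 252 and 311 counts in the gene table. Gm8226, a copy of Rpl7a, had 213, 240 and 239, and Gm12918, an exact copy of Rpl13, had 263, 142 and 154. Mpc1-ps copies Mpc1, a subunit of the mitochondrial pyruvate carrier, and had 181, 155 and 240. Gm7353, a copy of Zc3h3 chosen here after its values were seen, had 94.6, 163 and 151. With 3 counts per library as the limit that a 0 allows, their mean CPM was at least 55.7-fold to 106-fold higher in the gene table, a bound that covers counting error only.

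**Figure D2:**
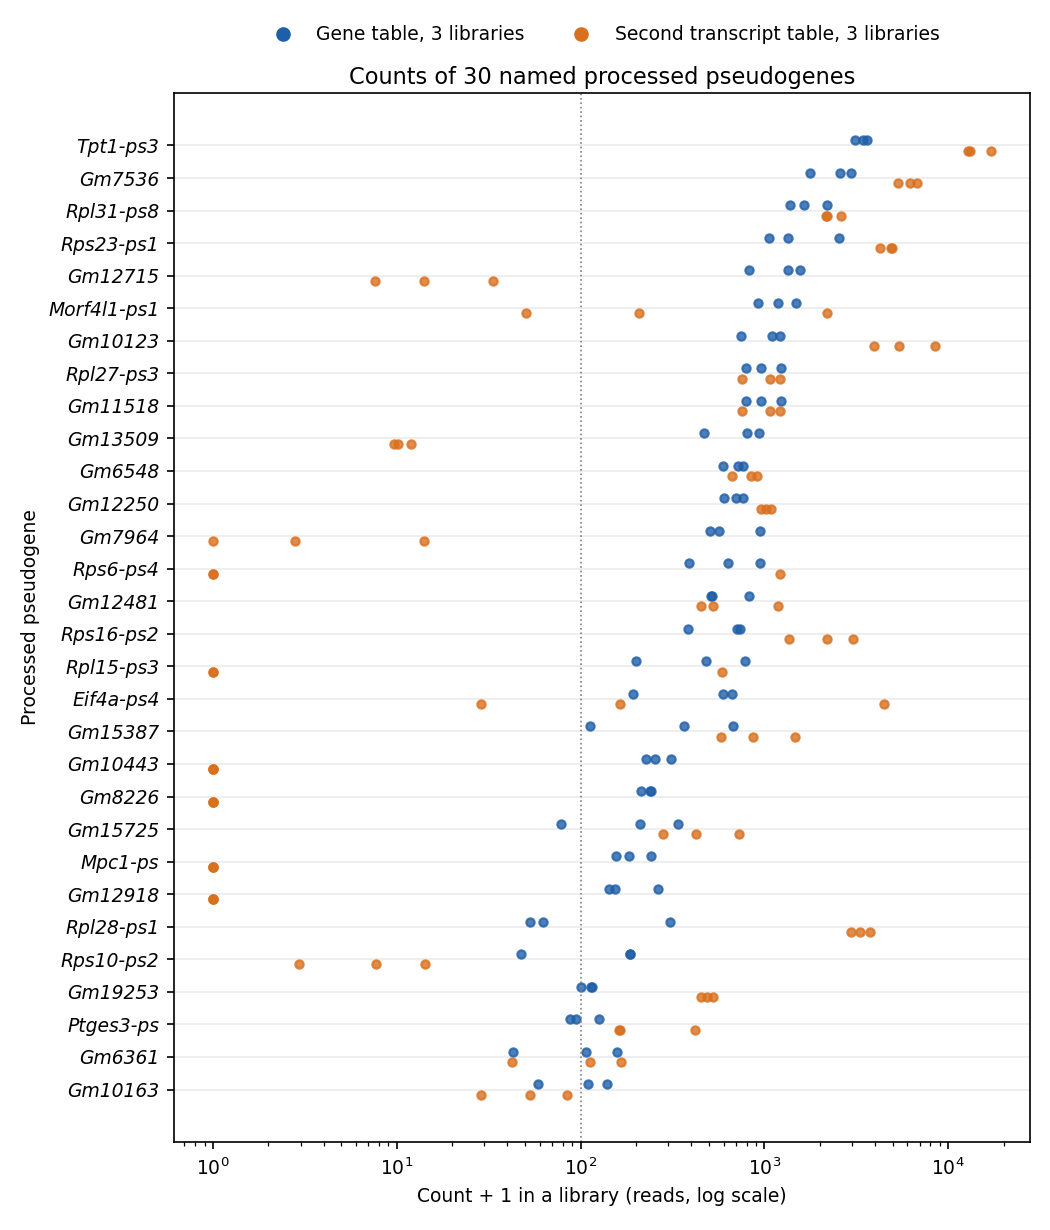
Count + 1 in each of 3 libraries (x axis, log scale) for the 30 pseudogenes picked by fixed rules, ordered by mean count, in the gene table (blue) and the second transcript table (orange). The dotted line marks 100 counts, and points at the left edge are libraries at 0: all 3 second-table points of Gm10443, Gm8226, Mpc1-ps and Gm12918 sit there, while those of Tpt1-ps3 lie to the right of its blue points.

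Over all 73, the log2 difference had a median of 1.94 and ran from -4.72 to 8.03. With the 5 pseudogenes at 0 set to their bounds, the median stayed at 1.94. Over all 14653 genes tested, the median of the mean over libraries was 0.15. Medians of the 73 per library were 1.23, 0.12 and 2.26 in replicates 1, 2 and 3. The median of all genes was not taken per library, so nothing is read from the steps between libraries. Without replicate 2 the median of the 73 was 1.89. All 73 passed the filter of this test. In the limma fit over all genes (adjusted p below 0.05 and a log2 difference of at least 1), 41 of the 73 were higher in the gene table, where 1.69% of all genes were. 9 of the 73 were lower, where 8.87% of all genes were. On the TPM setting without 7SL genes 63 were higher and 1 lower, where 12351 and 444 of all genes were. Since gene-table counts chose the pseudogenes, nothing is read from the excess of higher calls.

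That fit gave every gene of a given level the same variance, and 29 of the 73 had an SD above 1 over libraries. With a robust fit that lets genes of large spread keep their own variance, a setting chosen after seeing the data, 18 were higher (1.13% of all genes) and 6 lower (8.46%). The 18 include Gm10443, Gm8226, Mpc1-ps, Gm12918 and Gm13509 but neither Gm12715 nor Gm7964, whose adjusted p in limma became 0.057 and 0.089. Rpl28-ps1, Rps23-ps1 and Gm15387 were no longer among the lower ones. In each of the 3 libraries, 29 pseudogenes were at least 1 log2 unit higher and 6 at least 1 lower, and in 14 the libraries differed in sign.

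**Figure D3:**
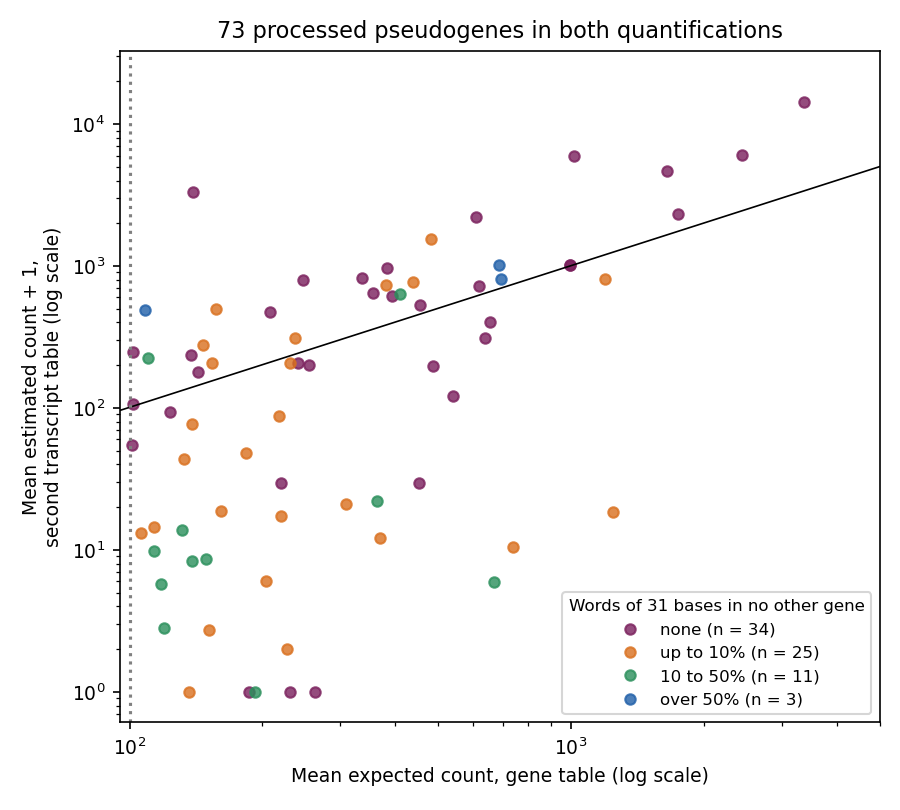
Mean expected count in the gene table (x axis, log scale) against mean estimated count + 1 in the second transcript table (y axis, log scale) for the 73 pseudogenes, coloured by the share of 31-base words in no other gene. The line marks equal counts and the dotted line the limit of 100 counts: 34 pseudogenes with no such word lie on both sides of the line, and most of the 25 with up to 10% and the 11 with 10 to 50% lie below it.

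The differences were then set beside the share of words that a pseudogene had to itself. Among the 34 with no word of their own, the median log2 difference was 0.25, with a range of -4.72 to 8.03, and 14 were called higher and 7 lower (3 and 4 in the robust fit). Among the 25 with up to 10% of such words it was 2.44, with 18 higher and 1 lower (9 and 1). Among the 11 with 10 to 50% it was 4.44, with 9 higher (6). The 3 with more than 50% had a median of -0.25. Of all genes tested, 1.69% were called higher and 8.87% lower (1.13% and 8.46% in the robust fit). These medians are descriptions of a list that gene-table counts chose, and no test was made of them.

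The 3 with most sequence of their own are given in turn. Gm12250 (chr11:58187739-58189012) is the gene of an immunity-related GTPase, of a family that guards cells against intracellular pathogens. The annotation types it as a processed pseudogene, and its best match, Gm5431, was 68.5% identical. If it arose as a copy of Gm5431 was not tested. Gm12250 had 760, 599 and 697 counts in the gene table and 1085, 957 and 1025 in the second. The log2 difference was -0.25 ± 0.09 (SD, n = 3), below 0 in every library but short of the limit of 1. On the TPM setting it was 1.73, where the median of all genes was 1.98. Gm6548 (chr17:78850792-78851956), a copy of the elongation factor gene Eef1a1 at 96.7% identity, had 594, 720 and 765 counts against 669, 911 and 842, a difference of 0.11 ± 0.14 that is smaller than its SD. Gm19253 (chr6:49071630-49071936), a copy of Mrps36 at 94.1% identity, was lower in the gene table. It had 99, 113 and 114 counts against 452, 521 and 489, a difference of -1.83 ± 0.14, although 86.6% of its words occur in no other gene. On the TPM setting its difference was 0.38, again below the shift of all genes. Mrps36 had 601 counts on average in the gene table and 762 in the second.

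The 4 glycolytic copies were all called higher in the gene table, as were 41 of all 73 pseudogenes and 1.69% of all genes. Among the 4, 3 were copies of Gapdh and 1, Gm5537, of Pgk1. None of the 4 was called in the robust fit, and none had a word of its own. Gm10359 and Gm12671, exact copies of Gapdh, had 233 and 233 counts in replicate 1, 424 and 424 in replicate 2, but 699 and 5.59 in replicate 3. The second table gave both 86.0, 0 and 0.01. Gapdh itself had a mean of 30264 counts in the gene table. Both Gapdh copies were chosen here after their values were seen. The 2 copies in the chromatin family were Gm15387 of Hmgb1 and Gm4739 of Hmgb2. Both were called lower in the gene table, where 8.87% of all genes were. Gm4739 was also lower in each library by at least 1 log2 unit. Morf4l1-ps1, which its parent's symbol placed outside this family, was called higher at 2.37 ± 2.35 (SD, n = 3), but not in the robust fit. Gm15387 had 363, 111 and 675 counts against 860, 583 and 1461, and its difference was 0.73 on the TPM setting.

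A list chosen by 1 table favours genes that are high in that table. The direction below turned with that choice, so nothing is read from the turn. Over all genes tested 1.69% were higher and 8.87% lower in the gene table. Taking processed pseudogenes with a mean of 100 or more in the second table gave 81 genes, of which 41 were shared with the 73 (56.2% of the 73 and 50.6% of the 81). Of these 81, 9 were higher and 41 lower in the gene table, with a median log2 difference of -1.02. Taking the mean of both tables gave 77 genes with 26 higher, 24 lower and a median of -0.11.

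**Figure D4:**
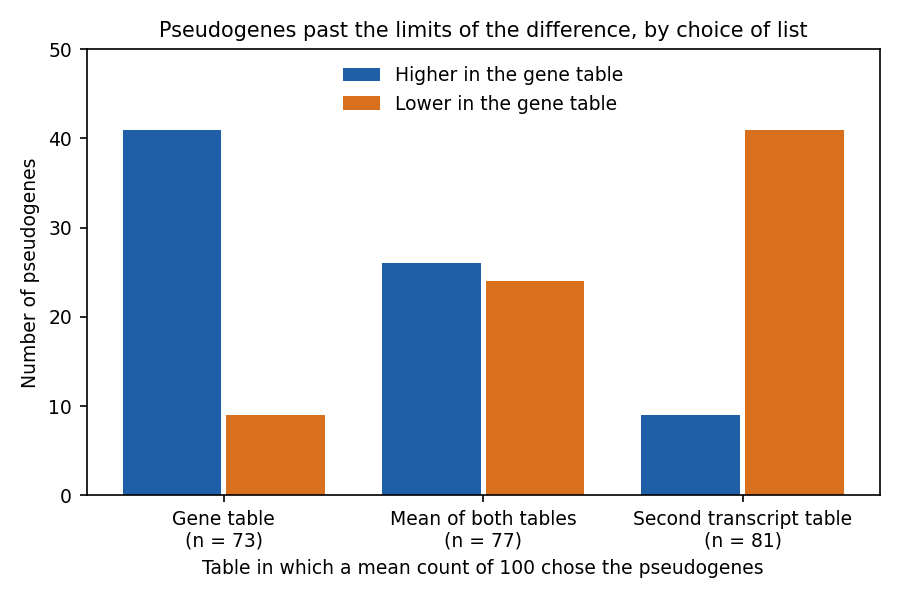
Number of pseudogenes (y axis, from 0) past adjusted p 0.05 in limma and a log2 difference of 1 between the tables, when a mean count of 100 in the gene table, in the mean of both, or in the second table chose the list (x axis, with the list sizes 73, 77 and 81). Higher calls (blue) go from 41 to 26 to 9, and lower calls (orange) from 9 to 24 to 41. A list chosen by 1 table favours genes that are high in that table.

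Parent and copies were then added up. Of 68 such family totals, 65 lay within 0.5 on the log2 scale between the tables, with a median of 0.20, against 58 of the 68 parents taken alone. Since the candidate parent took most of the total, these totals say little about the copies: the pseudogene was a median of 3.19% of the pair in the gene table and 1.91% in the second. Only 3 pseudogenes had more counts than their candidate parent in the gene table: Ndufb4c, Mrpl23-ps1 and Gm10557, chosen here after their values were seen.

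The 3 families beyond 0.5 were those of Rpl12 (5.16), Rps12 (3.88) and Cdh11 (1.30). Rps12 had a mean of 13824 counts in the gene table and 792 in the second, while Rps12-ps3, a further copy annotated as protein-coding, had 225 and 13642. Rpl12 had 12927 and 258, while Gm10275, whose transcripts are of mixed types and which is therefore not among the 73, had 1198 and 15186. Cdh11 had a mean of 8.03 counts, so its family total was that of its copy Gm10557. Of the words of Gm10557, 72.8% occur in no protein-coding transcript but only 4.07% in no other gene. Most of its words are thus shared with genes that are not protein-coding.

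The gene table also gives a posterior SD of each count, an uncertainty within its own way of dividing reads. It does not cover the difference between the tables. As a share of the posterior mean it was 7.58% in the median pseudogene, from 0% to 69.5%. In 51 of the 73 (69.9%) it was above 5%, against 98 of 7404 protein-coding genes of the same count range (1.32%), whose median was 0%. Gm12250 and Gm19253 had a posterior SD of 0%, although the mean counts of Gm19253 were 109 in the gene table and 487 in the second. The posterior SD was 3.16% for Tpt1-ps3, 49.4% for Rpl27-ps3, 62.4% for Gm12671 and 69.5% for Gm10163, a copy of Rpl21.

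Replicates were next compared within the gene table. The SD of log2(CPM + 0.1) over libraries had a median of 0.40 for the 73 pseudogenes in the gene table and 0.57 in the second. Protein-coding genes of the same count range in the gene table had 0.16 and 0.21. In the second table only 41 of the 73 had a mean of 100 or more, and 15 were under 10, 5 of them at 0. The second-table medians are thus not matched for level, and nothing is read from them. The SD was larger in the second table for 48 of the 73. In the goodness-of-fit test of edgeR, 8 of 70 tested pseudogenes spread more than genes of their level (adjusted p below 0.05), where 1.71% of 12250 genes did and 7 of 143 other processed pseudogenes did. The test used the counts whose mean chose the 73, and 11 of the 73, 1 of the 8 among them, had a mean under 100 without 1 of the libraries, so nothing is read from the share. Among second-table counts, 5 of 40 tested pseudogenes did, where 1.53% of all genes did, and 2 of them were among the 8. With 2 libraries the test called fewer genes in all, and 1, 3 and 5 of the 8 remained without replicate 1, 2 and 3.

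Rpl28-ps1 had the smallest adjusted p (7.01e-06, edgeR goodness of fit), with its 304 counts in replicate 1 against 51.9 and 61.5 in the others. It reached the limit of 100 only through replicate 1, with a mean of 56.7 without it. Eif4a-ps4 (chr1:60703932-60705149), a copy of the helicase gene Eif4a1 of translation initiation, had 191, 664 and 593 counts in the gene table. Its second-table counts were 27.6, 4470 and 163, and it was called in both tables. Gm12481, a copy of Serf2, was the other pseudogene called in both, with 511, 825 and 519 counts against 522, 1181 and 453. Replicate 2 was the high library of both pseudogenes in both tables.

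Rps6-ps4 and Rpl15-ps3, exact copies of Rps6 and Rpl15, were also called. Rps6-ps4 had 389, 950 and 629 counts in the gene table but 0, 1209 and 0 in the second. Rpl15-ps3 had 199, 480 and 780, against 0, 589 and 0. Both copies thus had second-table counts in replicate 2 alone. Their log2 differences of 5.97 ± 5.17 and 5.77 ± 5.04 (SD, n = 3) have little meaning as means. With values below 0.01 counts taken as 0, 8 of the 73 were at 0 in 1 library or more and at 100 or more in another in the second table, and 2 were in the gene table. Rps12l1, chosen here after its values were seen, had 0, 316 and 426 counts in the gene table and 0, 2375 and 0 in the second.

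Of the remaining 3 calls, Rps10-ps2, a copy of Rps10, had 184, 185 and 46.5 counts, Gm15387 was low in replicate 2, and Gm15725 had 76.9, 339 and 209. Gm15725 (chr16:37882542-37883631) overlaps an exon of Lrrc58 on the same strand, and Lrrc58 is also its best match, so its reads cannot be told from those of Lrrc58, which had a mean of 14160 counts.

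**Figure D5:**
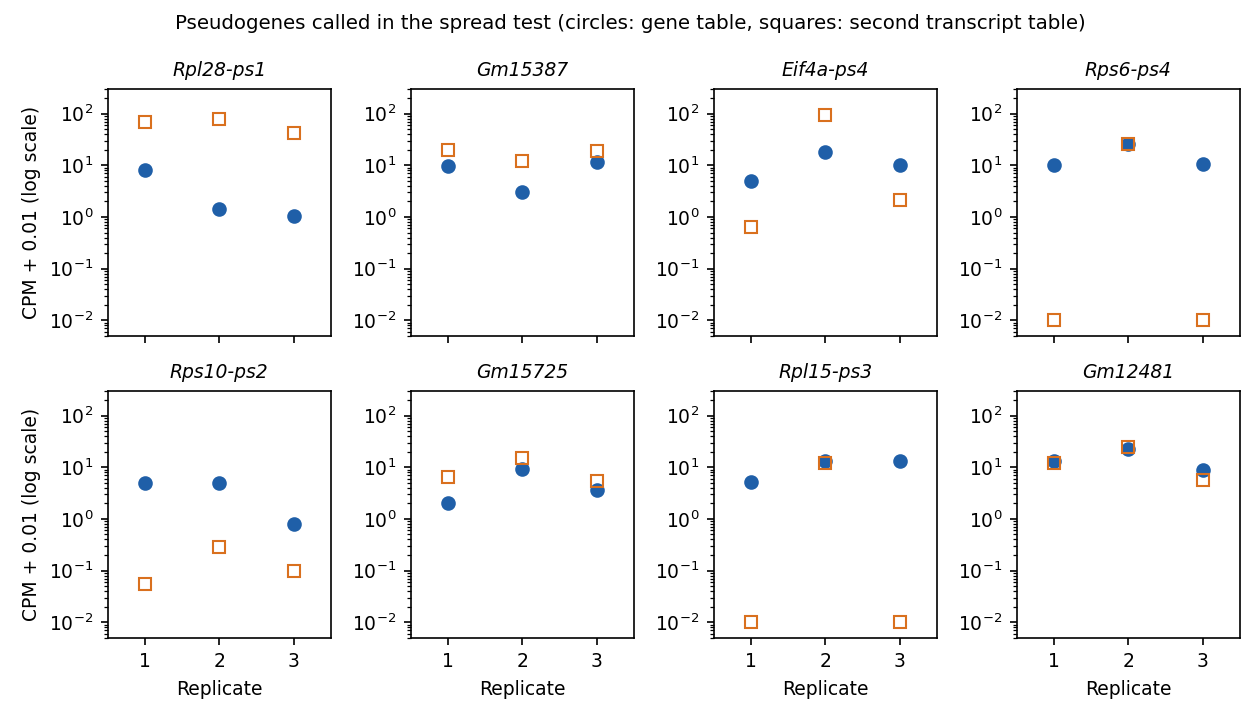
CPM + 0.01 (y axis, log scale) in replicates 1, 2 and 3 (x axis) for the 8 pseudogenes called in the spread test, in the gene table (filled circles) and the second transcript table (open squares). Squares at the bottom are libraries at 0, as for Rps6-ps4 and Rpl15-ps3 in replicates 1 and 3, while Gm12481 has close values in both tables.

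Position gave a further way for reads to be shared. An exon of another gene on the same strand overlapped 5 of the 73 (6.85%), against 1.57% of all processed pseudogenes. In 2 of these, Gm15725 in Lrrc58 and Gm17084 in Ripk1, the overlapped gene was also the best match. A same-strand gene body overlapped 15, the 5 among them (20.5% against 11.9%), and an opposite-strand one 18 (24.7% against 18.8%). The sources used here do not say if reads were counted by strand, so antisense pairs are uncertain. Without the 5 pseudogenes that an exon overlapped on the same strand, 39 of 68 were higher and 9 lower, with a median of 2.00. Of all genes, 1.69% were higher and 8.87% lower.

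Just inside the limit of 100 counts were Gm10163 with a mean of 101.5, Gm6361 with 101.8 and Ptges3-ps with 101.8. Just outside were Gm8822 with 98.9, Gm8116 with 97.5 and Rpl14-ps1 with 95.4. The second-table means of these 6 were 54.2, 106, 247, 22.6, 4.68 and 18.0. A further 19 genes with at least 1 processed pseudogene transcript and a mean of 100 or more had transcripts of other types as well and were left out.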

How the data were processed

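Total RNA depleted of ribosomal RNA was measured in 3 libraries of 1 group. The gene table holds expected counts, TPM, posterior means and posterior SDs that the authors made by aligning reads to the transcriptome. The second transcript table holds estimated counts and TPM that the authors made straight from the reads. Both statements, build mm10 and annotation GENCODE M21 are per the deposited notes. The first transcript table holds the expected counts of transcripts and was used as an alternative. The sources used here do not give tool names, versions or strand settings. Features that name no gene, among them 97 spike-ins, were left out.

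The per-library difference of log2(CPM + 1 count) between tables was tested with limma 3.58.1 over genes with a mean of 10 counts or more. Spread was tested with edgeR 4.0.16 on expected counts rounded to whole numbers, with DESeq2 1.42.0 size factors as an alternative. Adjustment was Benjamini-Hochberg over all genes tested. Both tests were checked on simulated data. Candidate parents came from NCBI BLAST 2.17.0 (best bit score, same strand, protein-coding). Sequences are those of GENCODE M21 transcripts.

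The pseudogenes, lists and tests were chosen with earlier results of these data known. Named pseudogenes were the 10 with the highest mean count, the 5 highest and 5 lowest differences, up to 10 spread calls, the 5 with the most words of their own among those with a mean of 500 or more, 3 on each side of the limit of 100, and the transcribed type.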

Additional observations from a re-analysis of the deposited data

Results flagged for a closer look

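Processed pseudogenes with reads in the second table but not in the gene table are outside the comparisons above, since the gene table chose the list. There were 20 with a mean of 100 or more estimated counts and at most 3 expected counts in any library of the gene table. Only the 4 with the highest means are given.

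Gm12895 (chr4:122455210-122455435) and Gm12896 (chr4:122122847-122123072) each had a mean of 2968425 estimated counts and 0 expected counts. Their transcripts of 226 bases share 194 of 196 words of 31 bases, and each was given 846194, 1179610 and 6879470 counts in replicates 1, 2 and 3. The pair took 3.85%, 4.95% and 17.6% of all second-table counts, so the CPM of every other gene in that table moves with it, most in replicate 3. Its part in the differences between tables was not tested.

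Gm19220 had a mean of 5854 estimated counts and Vamp7-ps a mean of 484, both with 0 in the gene table. In Gm19220, 99.4% of the words occur in no other gene, and in Vamp7-ps 100%. Neither overlaps another annotated gene. The cause was not tested.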

How the results depend on the processing

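With TPM in place of counts, rescaled without 7SL genes and with an offset of 0.1, all changed together, the median over all genes moved from 0.15 to 1.98, and 12351 genes were higher and 444 lower, with 63 and 1 of the pseudogenes and a median of 3.54. There the log2 differences of Tpt1-ps3 (0.23), Gm7536 (0.98), Rps23-ps1 (0.73), Gm19253 (0.38), Rps16-ps2 (0.49) and Gm15387 (0.73) turned positive. So did those of Rpl31-ps8 (1.94), Gm15725 (0.98), Gm12250 (1.73) and Ptges3-ps (1.15). Each of these stayed below that shift of all genes. Gm10123 (-0.19) and Rpl28-ps1 (-2.72) stayed negative. Raw counts moved the median of all genes to -0.18 and TMM to 0.03. A filter of 100 counts gave 65 and 146 genes, 26 pseudogenes higher and a median of 0.31 over the fewer pseudogenes with that mean over both tables. A filter of 1 count gave 416 and 3317 genes. The robust prior variance, added after seeing the data, gave 18 pseudogenes higher. With posterior mean counts Gm10163 turned to -0.11. Lists chosen by the second table gave 9 higher, 41 lower and a median of -1.02, and lists by the mean of both 26 higher, 24 lower and -0.11. Spread calls in the second table were 5. Without 1 replicate, spread calls ranged from 1 to 5 among the pseudogenes and from 59 to 129 over all genes, pseudogenes higher in the gene table from 30 to 41, lower from 8 to 11, and the median from 1.43 to 1.89. Words of 75 bases gave a median of 5.11% and words absent from protein-coding transcripts 4.41%. Of the differences of single named pseudogenes under all alternatives, 313 kept within 1 SD, 36 moved and 7 reversed. The 7 do not hold every change of sign. Gm6361 went from 0.29 to -0.34 with posterior mean counts, counted as moved. Gm12481 went from 0.21 to -0.12 with raw counts, counted as kept. An SD as large as the 5.17 of Rps6-ps4 lets almost any value count as kept. Of 45 spread results, 20 were no longer called. The cause of these changes was not tested except where stated. No paired analysis was possible because there is only 1 group, so replicate numbers pair no groups. The 2 tables of a library were paired by their difference. Depth limits values of a few counts.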
